A study of Mus musculus with 6 samples.

Results

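The genes described here are 39 enzymes and enzyme subunits of fuel oxidation. Of these, 21 are grouped with the tricarboxylic acid (TCA) cycle, 15 with branched-chain amino acid breakdown and 3 with ketone body use. The TCA cycle genes as counted here include the cytosolic Aco1, Idh1 and Mdh1 and the NADP-dependent Idh2, and Bcat1 is cytosolic too. All 39 were chosen by symbol, and 37 of them were carried by 52 of the 25697 probes of the array, while Sdha and Mccc2 had no probe. The question was how their transcripts differed in the hearts of mouse pups in which the human sex-determining gene SRY had been switched on. Most TCA cycle transcripts were lower in these hearts, with 12 of 18 tested genes called lower and none called higher, where 13.9% of all tested genes were called lower and 14.9% higher. Of 10 branched-chain genes 2 were called lower and Bcat1 higher. Of the ketone body genes Oxct1 was called lower. Bdh1 was called higher by its 1 tested probe, which was above background only in the hSRY-ON hearts, while its other probe showed no such difference.

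Total RNA of hearts from male pups of the strain FVB, kept on an FVB/N background, was taken at postnatal day 6 and hybridized to single-colour Illumina BeadChips, on which bead brightness measures the abundance of a transcript. There were 3 hSRY-ON hearts and 3 hSRY-OFF hearts, 1 array each. The hSRY-ON pups carried a single-copy Signalox-hSRY responder at the H11 locus, in which Cre from the oocyte of a Ddx4-Cre mother had placed FLAG-tagged human SRY and EGFP under the ubiquitous CAG promoter at the single-cell stage. Pups that had inherited Ddx4-Cre itself were left out of the hSRY-ON arrays. The methods define hSRY-OFF as the unrecombined transgene, whereas another passage gives the control littermates as Ddx4-Cre only or non-transgenic, so the genotype of the control hearts is uncertain. All hSRY-ON mice come from 1 responder line and suckle little, so that the transgene and the poor feeding cannot be told apart in these hearts. This array carries no measure of the human transgene.

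In the TCA cycle, acetyl-CoA from fat, sugar, amino acids and ketone bodies is joined to oxaloacetate and oxidized in the mitochondrial matrix, and the NADH and succinate it yields feed the respiratory chain. Branched-chain amino acids (leucine, isoleucine and valine) enter through a transaminase and a dehydrogenase complex that is switched off by a kinase. Ketone bodies enter through a CoA transferase that liver lacks and heart has in abundance. The neonatal heart is in transit from a glycolytic to an oxidative metabolism and takes up milk-derived fat and ketone bodies.

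The arrays had similar shares of probes above background, 47.2% to 51.3% at a detection p-value under 0.05. Their quality weights estimated by limma differed, from 0.469 for hSRY-OFF replicate 3 to 2.86 for hSRY-OFF replicate 1. hSRY-OFF replicate 3 was the dimmest array, its probes averaging 631 where the other arrays averaged 723 to 939. Values below are log2 of the background-corrected, quantile-normalized intensity, and a change is the mean of hSRY-ON minus the mean of hSRY-OFF on that scale, with its standard error (SE). A probe was tested when it was above background on at least 3 of the 6 arrays, and a gene was called at an adjusted p-value under 0.05 in limma with Benjamini-Hochberg adjustment over all 12970 tested probes. Each gene is given by its brightest tested probe unless another is named. Among 9660 tested genes, 13.9% were called lower in hSRY-ON and 14.9% higher, and the median change was 0.003. Without normalization between arrays this median was -0.11, and the share of higher calls among all calls went from 51.7% to 40.3%. The tested genes included 31 of the 39 members, and 29 of those were above background on all 6 arrays. Probes of Sucla2, Mccc1, Mut and Hibch were not above background on any array, those of Auh on 1 hSRY-ON array and those of Pcx on 2 hSRY-ON arrays, so these 6 genes were not tested.

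Cell type markers are given first, because heart RNA is a mixture in which fewer cells of a type and less RNA per cell cannot be told apart. Of 9 cardiomyocyte markers, Myh6, Tnni3, Ryr2 and Pln were called lower, Myh7, the fetal myosin heavy chain, was higher by 2.94, and the median change was -0.30. Their summed intensity ranged from 136200 to 154000 over the hSRY-OFF hearts and from 138700 to 148400 over the hSRY-ON hearts. Myl2 and Nppa, which carry much of that sum, lay at the top of the intensity scale and had the same value in all 3 hSRY-ON hearts, so the sum has little room to move and is no measure of cardiomyocyte content. The summed TCA cycle intensity, over 18 genes, ranged from 98180 to 108900 over the hSRY-OFF hearts and from 61620 to 68060 over the hSRY-ON hearts, whose mean was 61.8% of that of hSRY-OFF. The macrophage sum over 7 genes went from 3757 to 4833 in hSRY-OFF to 8467 to 9055 in hSRY-ON, and 6 of the 7 were called higher. Endothelial markers summed to 90.1% of hSRY-OFF with 3 of 7 called lower and 1 higher, and fibroblast markers to 92.8% with 1 of 7 higher. Of 5 erythroid markers Hbb-b1 was called lower by 1.29, and their sum, from 48990 to 61240 over the hSRY-OFF hearts and from 50770 to 55440 over those of hSRY-ON, rests on Hba-a1, which lay at the top of the scale on most arrays. Of skeletal muscle markers, Myh1, Myh2, Myh4 and Tnnt3 were not above background on any array, while Acta1 and Ckm, which heart also expresses, were called lower and Actn3 higher, and the sum of these 3 was 47.2% of hSRY-OFF. Actn3, like Ttr below, was not above background on any hSRY-OFF array and was tested only through hSRY-ON. Among 4 tested fat markers Ucp1 and Adipoq were called higher, the former with overlapping groups, while Cidea had a change of -1.05 with every hSRY-ON heart below every hSRY-OFF heart (adjusted p = 0.0691). Their sums ran from 1803 to 2575 over the hSRY-OFF hearts and from 1037 to 3592 over those of hSRY-ON. Of liver markers, Alb, Fgb and Serpina1a were not above background on any array, while Ttr and Ahsg were called higher, with sums from 187 to 256 over the hSRY-OFF hearts and from 1063 to 2938 over those of hSRY-ON. The part of these cell types in the changes below was not tested.

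Of the 18 tested TCA cycle genes, 12 (66.7%) were called lower in hSRY-ON hearts, against 13.9% of all tested genes. Their median change was -0.845, with a range from -1.59 to 0.06, against 0.003 over all genes. In 14 of the 18 every hSRY-ON heart lay below every hSRY-OFF heart, a pattern found in 22.0% of all tested genes. A decrease of at least 2-fold was called in 5 of the 18, namely Mdh2, Mdh1, Cs, Sdhb and Ogdh, against 4.60% of all tested genes. Of the 18 only Idh1, a cytosolic enzyme, had a positive change, and that sign turned without normalization between arrays.

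**Figure D1:**
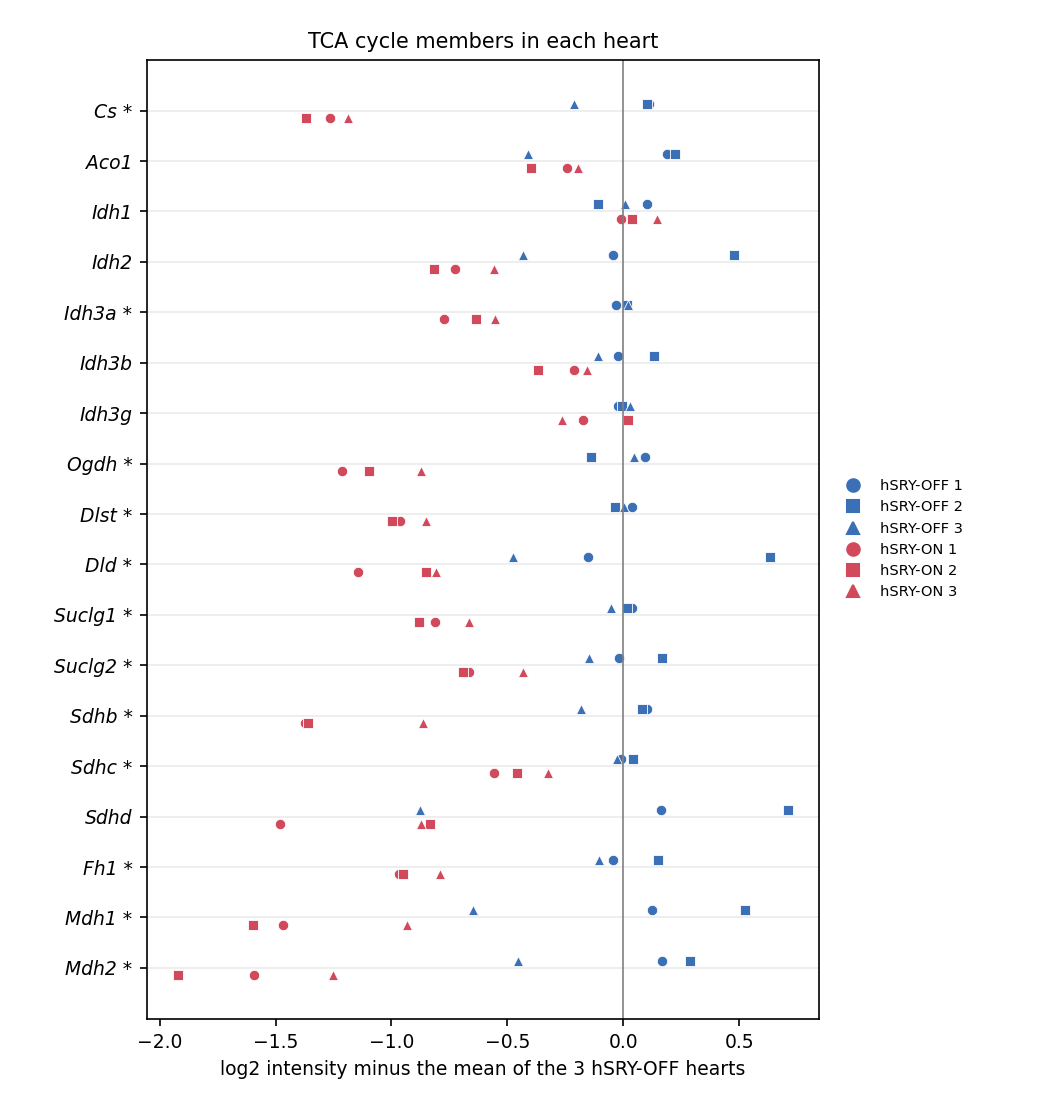
Each point is 1 heart, with its log2 intensity minus the mean of the 3 hSRY-OFF hearts on the horizontal axis and the 18 tested TCA cycle genes on the vertical axis; blue points are hSRY-OFF, red points hSRY-ON, shapes mark the replicate number and an asterisk marks an adjusted p-value under 0.05. The 2 groups are apart in 14 genes, while Aco1, Idh1, Idh3g and Sdhd overlap.

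Citrate synthase (Cs) makes citrate from acetyl-CoA and oxaloacetate, the entry step of the cycle. Its log2 intensity was 12.99, 12.99 and 12.67 in hSRY-OFF replicates 1 to 3 and 11.62, 11.51 and 11.70 in hSRY-ON replicates 1 to 3. Every hSRY-ON heart was far below every hSRY-OFF heart, and the narrowest gap was that between the replicates numbered 3. The change was -1.27 (SE 0.14, n = 3 each, limma adjusted p = 0.000801), which left 41.4% of the hSRY-OFF level.

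Aco1, the cytosolic aconitase that converts citrate to isocitrate and doubles as iron regulatory protein, was near background at 6.01, 6.04 and 5.41 in hSRY-OFF and 5.58, 5.42 and 5.62 in hSRY-ON hearts. Its groups overlapped, and the change of -0.28 (SE 0.19) did not pass the test, with an adjusted p of 0.306.

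The NAD-dependent isocitrate dehydrogenase, the enzyme of the cycle itself, has 1 catalytic subunit, Idh3a, and the further subunits Idh3b and Idh3g. Idh3a was 12.21, 12.26 and 12.26 in hSRY-OFF and 11.47, 11.61 and 11.69 in hSRY-ON hearts. The hSRY-OFF hearts were almost level with each other and all hSRY-ON hearts lay below them, with a change of -0.655 (SE 0.12, adjusted p = 0.00568). Idh3b had a change of -0.245 (SE 0.13, adjusted p = 0.187) and Idh3g of -0.14 (SE 0.12, adjusted p = 0.432), neither of which passed the test. A second, dimmer Idh3g probe was lower with a change of -0.435 (adjusted p = 0.0267), so the probes of this gene disagree. The Idh3a call was lost without normalization between arrays (adjusted p = 0.0712), where the change was -0.76 with an SE of 0.30.

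The NADP-dependent forms make NADPH and lie beside the cycle. Idh2, in mitochondria, was 11.19, 11.71 and 10.80 in hSRY-OFF and 10.51, 10.42 and 10.68 in hSRY-ON hearts. The groups did not overlap, but the hSRY-OFF hearts spread widely (SD 0.46), and the change of -0.70 (SE 0.23) missed the threshold with an adjusted p of 0.0537. Idh1, in the cytosol, was 10.64, 10.43 and 10.54 in hSRY-OFF and 10.53, 10.57 and 10.68 in hSRY-ON hearts, fully mixed between the groups. Its change was 0.06 (SE 0.12, adjusted p = 0.752), within a 95% interval from -0.22 to 0.335, and it was -0.02 without normalization between arrays.

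The 2-oxoglutarate dehydrogenase complex makes succinyl-CoA, and it was the multi-subunit enzyme in which all listed subunits were called lower and by like amounts, from -1.06 to -0.93. Ogdh, its decarboxylating E1 subunit, was 12.86, 12.63 and 12.82 in hSRY-OFF and 11.56, 11.67 and 11.90 in hSRY-ON hearts (change -1.06, SE 0.14, adjusted p = 0.00163). Dlst, the E2 core that carries lipoic acid, was 13.47, 13.40 and 13.44 in hSRY-OFF and 12.47, 12.44 and 12.59 in hSRY-ON hearts (change -0.94, SE 0.11, adjusted p = 0.00118). Both genes were separated between the groups by several times the spread within either group. Dld, the E3 subunit shared with the pyruvate and branched-chain dehydrogenases, was dim, with 6.56, 7.345 and 6.24 in hSRY-OFF and 5.57, 5.86 and 5.91 in hSRY-ON hearts. All hSRY-ON hearts were below, yet the hSRY-OFF hearts varied widely, and the change of -0.93 (SE 0.27) was called at an adjusted p of 0.0389. The Dld call was lost when any heart other than hSRY-OFF replicate 3 was left out (adjusted p up to 0.113), without the probe filter, and without background correction, where the change was -0.35.

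Succinyl-CoA ligase turns succinyl-CoA into succinate while making a nucleoside triphosphate, and both of its tested subunits were called lower. Suclg1, the shared alpha subunit, was 13.29, 13.27 and 13.19 in hSRY-OFF and 12.44, 12.37 and 12.58 in hSRY-ON hearts (change -0.79, SE 0.12, adjusted p = 0.00269). Suclg2, the GTP-specific beta subunit, was 11.11, 11.295 and 10.98 in hSRY-OFF and 10.46, 10.44 and 10.695 in hSRY-ON hearts (change -0.60, SE 0.14, adjusted p = 0.0164). In both the hSRY-ON hearts lay below with no overlap. The second tested probe of Suclg1 was called lower too, by 0.925, whereas the second of Suclg2 had a change of -0.135 that did not pass the test. The Suclg2 call was lost when replicate 1 or 2 of either group was left out, and also without normalization between arrays and with the mean of its probes (adjusted p up to 0.118). Sucla2, the ATP-specific beta subunit, was not above background on any array, so the beta subunits could not be compared.

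Succinate dehydrogenase oxidizes succinate to fumarate and is at the same time complex II of the respiratory chain. Sdhb, its iron-sulfur subunit, was 12.79, 12.77 and 12.51 in hSRY-OFF and 11.32, 11.33 and 11.825 in hSRY-ON hearts, with every hSRY-ON heart below every hSRY-OFF heart. The change was -1.20 (SE 0.17, adjusted p = 0.00251), or 43.6% of the hSRY-OFF level. A second Sdhb probe was called lower by 1.24, and another, near background, had a change of -0.62 that did not pass the test. Sdhc, a membrane anchor, was 13.73, 13.78 and 13.71 in hSRY-OFF and 13.18, 13.28 and 13.42 in hSRY-ON hearts, again without overlap and by less than Sdhb (change -0.45, SE 0.12, adjusted p = 0.0272). Its call was lost when replicate 1 or 2 of either group was left out, and without normalization between arrays (adjusted p up to 0.181). Sdhd, the other anchor, was 7.37, 7.92 and 6.33 in hSRY-OFF and 5.72, 6.37 and 6.33 in hSRY-ON hearts, and its groups overlapped through hSRY-OFF replicate 3 (change -1.06, SE 0.385, adjusted p = 0.0779).

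Fumarase (Fh1) and malate dehydrogenase close the cycle. Fh1 was 13.32, 13.52 and 13.26 in hSRY-OFF and 12.40, 12.42 and 12.58 in hSRY-ON hearts, a change of -0.90 (SE 0.13, adjusted p = 0.00216) with the groups well apart. Mdh2, the matrix malate dehydrogenase that regenerates oxaloacetate, had the largest decrease of the 31 tested members. Its values were 12.55, 12.67 and 11.93 in hSRY-OFF and 10.79, 10.46 and 11.13 in hSRY-ON hearts. The lowest hSRY-OFF heart, replicate 3, was still well above the highest hSRY-ON heart, also replicate 3, and the change was -1.59 (SE 0.24, adjusted p = 0.00304), or 33.2% of the hSRY-OFF level. Mdh1, the cytosolic enzyme of the malate-aspartate shuttle, was 10.38, 10.78 and 9.61 in hSRY-OFF and 8.79, 8.66 and 9.33 in hSRY-ON hearts (change -1.33, SE 0.31, adjusted p = 0.0167). Its second probe, above background on only 1 hSRY-ON array, was called lower by 1.13. Another Mdh1 probe was above background on 2 hSRY-OFF arrays and 0 hSRY-ON arrays and was not tested. The Mdh1 groups stood apart but by a narrow gap between the replicates numbered 3, and the call was lost without hSRY-OFF replicate 1, hSRY-ON replicate 1 or hSRY-ON replicate 2 (adjusted p up to 0.0565).

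Within the groups the same hearts often stood at the edge. hSRY-OFF replicate 3, the dimmest array, was the lowest of its group in 13 of 18 genes, and hSRY-ON replicate 3 was the highest of its group in 16 of 18. In these genes, apart from Idh1 with its positive change, they were thus the hearts nearest to the other group. How often they held these places over all tested genes was not measured. hSRY-OFF replicate 3 also had the lowest mean log2 of the cardiomyocyte markers in its group, 12.17 against 12.43 and 12.46. Its means of the erythroid and fat markers, 11.27 and 7.92, were the highest of its group. hSRY-ON replicate 3 had the highest cardiomyocyte mean of its group, 12.31. The part of brightness or tissue mixture in these positions was not tested. The median SD within a group over the 18 TCA cycle genes was 0.145 in hSRY-OFF and 0.125 in hSRY-ON. Without hSRY-OFF replicate 3, 15 TCA cycle genes were called lower in place of 12, Aco1, Idh2 and Sdhd being added, and the median change was -0.92. Without hSRY-ON replicate 3, 11 were called and the median was -0.90. Leaving out another heart lowered the count, to 8 without hSRY-OFF replicate 1, hSRY-ON replicate 1 or hSRY-ON replicate 2. It was 9 without hSRY-OFF replicate 2. The share of all tested genes called lower, 13.9% with every heart, moved as well. It was 14.6% without hSRY-OFF replicate 3 and 12.3% without hSRY-ON replicate 3. Without hSRY-OFF replicates 1 and 2 in turn it was 8.85% and 9.51%, and without hSRY-ON replicates 1 and 2 in turn 9.38% and 10.9%.

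**Figure D2:**
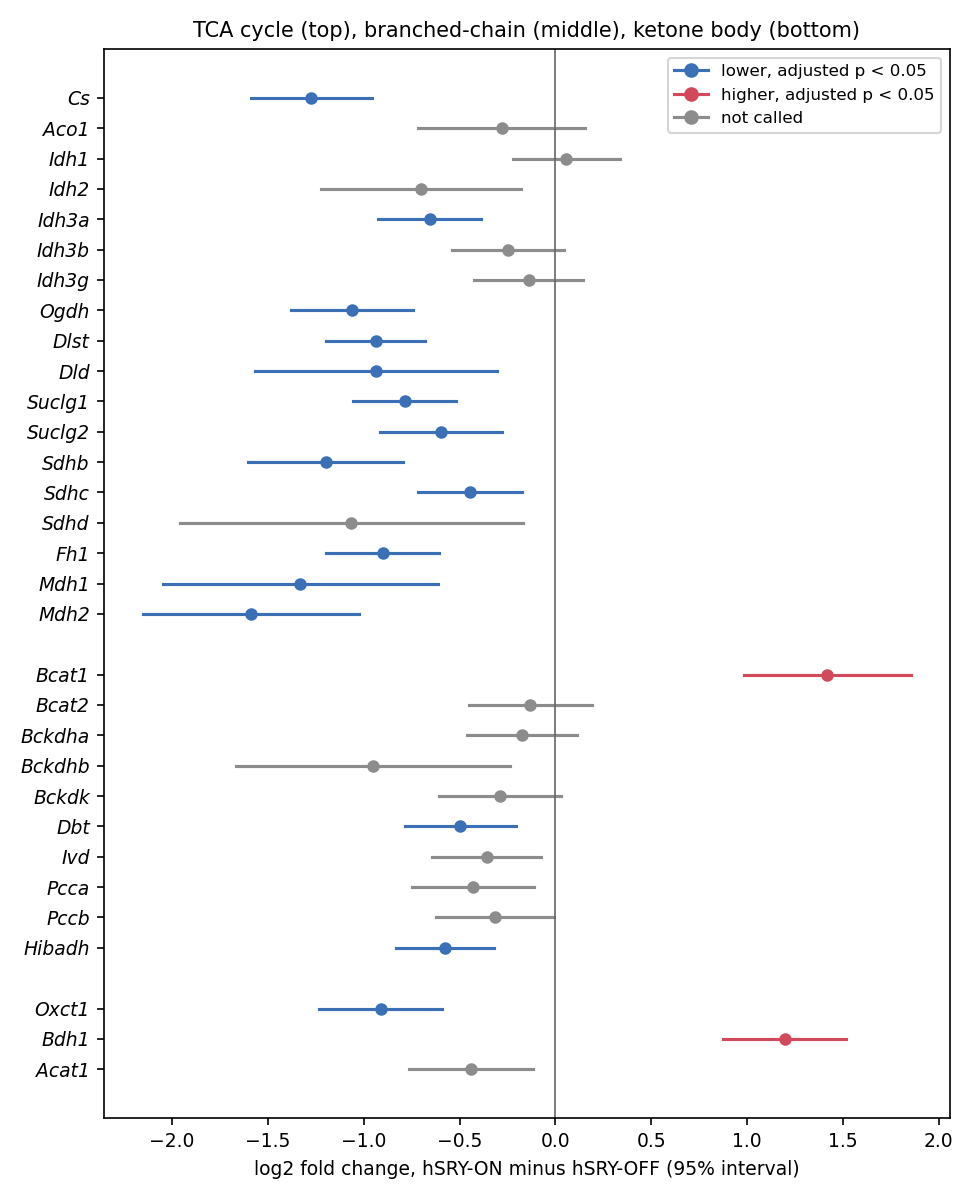
Each point is the log2 fold change of 1 gene, hSRY-ON minus hSRY-OFF, with its 95% interval from limma as a bar; blue is called lower, red called higher and grey not called at an adjusted p-value under 0.05. TCA cycle genes run from -1.59 for Mdh2 to 0.06 for Idh1, while Bcat1, at 1.42, and Bdh1 are the 2 called higher. The point of Bdh1 is the fitted value of its tested probe against hSRY-OFF arrays on which that probe was not above background, so only a lower bound of its change is known.

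Of the 10 tested genes of branched-chain amino acid breakdown, 2 (20.0%) were called lower and 1 higher, a lower share near the 13.9% of all tested genes, of which 14.9% were higher. Their median change was -0.34, and 8 of 10 had every hSRY-ON heart below every hSRY-OFF heart, against 22.0% of all genes. The count of calls lay between 2 and 7 with other settings. The count of 7 came with array quality weights, which called 19.3% of all tested genes lower. With the main settings, 3 uncalled genes had an adjusted p between 0.05 and 0.1.

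The first step removes the amino group. Bcat1, the cytosolic transaminase, was 7.53, 7.29 and 7.60 in hSRY-OFF and 9.22, 8.91 and 8.55 in hSRY-ON hearts. All hSRY-ON hearts were far above all hSRY-OFF hearts, and the change of 1.42 (SE 0.19, adjusted p = 0.00174) was the largest increase of the 31 tested members, 2.68-fold. Without background correction the Bcat1 change was smaller, 0.97, and still called. Bcat2, the mitochondrial transaminase of muscle and heart, was 10.38, 10.17 and 10.59 in hSRY-OFF and 10.22, 10.28 and 10.24 in hSRY-ON hearts, inside the range of the hSRY-OFF group (change -0.13, SE 0.14, adjusted p = 0.515, 95% interval -0.45 to 0.19). The macrophage markers, which also rose, were higher by 0.92 to 1.30 in the 6 called genes, and their part in the Bcat1 change was not tested.

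The branched-chain 2-oxoacid dehydrogenase makes the step that commits the carbon skeletons to oxidation. Dbt, its E2 core, was 8.065, 8.17 and 8.22 in hSRY-OFF and 7.81, 7.58 and 7.57 in hSRY-ON hearts, below with no overlap (change -0.50, SE 0.125, adjusted p = 0.0227). This call was lost when replicate 1 or 2 of hSRY-OFF or replicate 2 or 3 of hSRY-ON was left out, and without normalization between arrays (adjusted p up to 0.17). Bckdhb, the E1 beta subunit, had the larger change of -0.95 but with an SE of 0.31, and missed the threshold (adjusted p = 0.0546). Its hSRY-OFF hearts were 9.10, 9.38 and 8.17 and its hSRY-ON hearts 7.62, 8.02 and 8.155, so that hSRY-OFF replicate 3 nearly met the hSRY-ON group, and without that heart the gene was called lower.

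Bckdha, the E1 alpha subunit, was 10.90, 11.15 and 10.955 in hSRY-OFF and 10.76, 10.90 and 10.83 in hSRY-ON hearts (change -0.175, SE 0.12, adjusted p = 0.327). Bckdk, the kinase that inactivates it, was 11.37, 11.23 and 11.61 in hSRY-OFF and 11.04, 11.09 and 11.21 in hSRY-ON hearts (change -0.29, SE 0.14, adjusted p = 0.156). Both had the hSRY-ON hearts just below the hSRY-OFF hearts, by gaps smaller than the spread within hSRY-OFF. Ppm1k, the phosphatase that counters the kinase and reactivates the complex, is not among the 39 genes. It was 9.83, 10.26 and 9.87 in hSRY-OFF and 8.77, 9.43 and 8.86 in hSRY-ON hearts, lower in all hSRY-ON hearts, with a change of -0.96 (SE 0.21, adjusted p = 0.0126).

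Downstream of the dehydrogenase the routes of the 3 amino acids part. Hibadh, which oxidizes 3-hydroxyisobutyrate of the valine route, was 13.48, 13.46 and 13.59 in hSRY-OFF and 12.95, 12.95 and 12.90 in hSRY-ON hearts. Both groups were tight and they did not overlap (change -0.58, SE 0.11, adjusted p = 0.0079), although the call was lost without normalization between arrays (adjusted p = 0.0918). Ivd, the isovaleryl-CoA dehydrogenase of the leucine route, had a change of -0.36 (SE 0.12, adjusted p = 0.0661). Pcca and Pccb, the alpha and beta subunits of propionyl-CoA carboxylase, which passes valine and isoleucine carbon towards succinyl-CoA, had changes of -0.43 (SE 0.14, adjusted p = 0.0517) and -0.315 (SE 0.13, adjusted p = 0.118). In Ivd, Pcca and Pccb every hSRY-ON heart lay below every hSRY-OFF heart, but none of the 3 passed the test.

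Ketone body oxidation had 3 genes, all tested. Oxct1 encodes the CoA transferase that activates acetoacetate outside the liver and is the step that lets heart burn ketone bodies. It was 12.94, 12.65 and 12.81 in hSRY-OFF and 11.91, 11.72 and 12.035 in hSRY-ON hearts. The groups stood apart by more than the spread within either, with a change of -0.91 (SE 0.14, adjusted p = 0.00296) that left 53.1% of the hSRY-OFF level. Acat1, the mitochondrial thiolase that splits acetoacetyl-CoA and also ends isoleucine breakdown, was 7.42, 7.21 and 7.03 in hSRY-OFF and 6.81, 6.85 and 6.675 in hSRY-ON hearts. It did not overlap but missed the threshold (change -0.44, SE 0.14, adjusted p = 0.0511).

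Bdh1, which interconverts 3-hydroxybutyrate and acetoacetate, went the other way. Its tested probe was not above background on any hSRY-OFF array, where the values were 4.86, 4.74 and 4.88. Each of the 3 hSRY-ON arrays measured that probe above background, at 6.21, 6.05 and 5.81. Bdh1 entered the test only through the hSRY-ON group, so it had to differ. Because the hSRY-OFF level of this probe is only a bound, its signal was at least 1.51-fold higher in hSRY-ON, where each hSRY-OFF array was set to its lowest signal above background. limma's fit gave a change of 1.20 (SE 0.14, adjusted p = 0.00108), and 0.36 without background correction. The other Bdh1 probe was above background on 1 hSRY-OFF and 1 hSRY-ON array and was not tested. It was 5.025, 4.81 and 5.96 in hSRY-OFF and 5.55, 5.195 and 4.93 in hSRY-ON hearts. Its groups overlapped, so the 2 probes of this gene do not show the same difference.

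**Figure D3:**
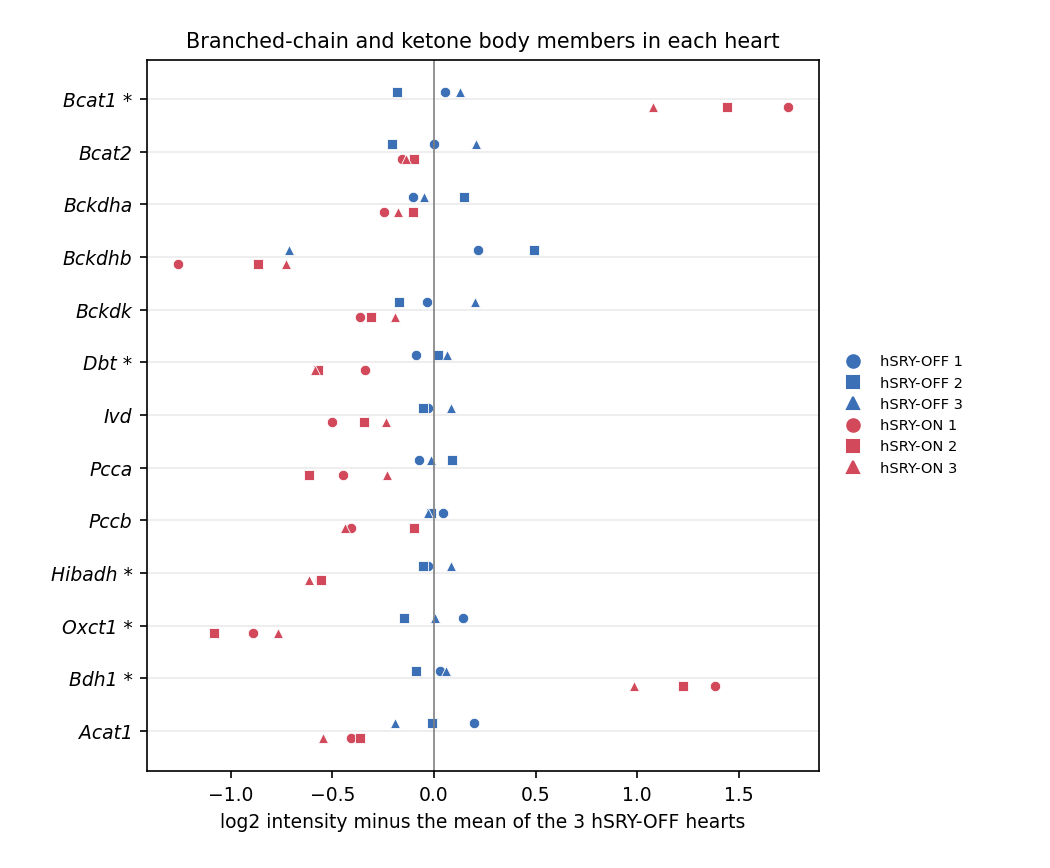
Each point is 1 heart, with its log2 intensity minus the mean of the 3 hSRY-OFF hearts on the horizontal axis, for the 10 branched-chain genes and the 3 ketone body genes that were tested; blue points are hSRY-OFF, red points hSRY-ON, shapes mark the replicate number and an asterisk marks an adjusted p-value under 0.05. Bcat1 and Bdh1 lie to the right in all hSRY-ON hearts, Oxct1 lies to the left, and Bcat2 is mixed.

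Members that share a reaction or a substrate were set against each other within each heart, as the difference of their log2 values, which shows unequal change only. Of 9 listed pairs 7 had both genes tested, and in 4 of these the differences of the hSRY-ON hearts did not overlap those of the hSRY-OFF hearts. How often pairs of other genes separate was not measured, so it is not known whether 4 of 7 is unusual. Among 9660 single tested genes, 2123 had every hSRY-ON heart below every hSRY-OFF heart and 2401 had every hSRY-ON heart above. With 3 hearts against 3 the smallest 2-sided exact permutation p is 0.1, and adjusted over the 7 pairs it is 0.175, so no pair could pass a threshold and the sizes are a description. Bcat2 changed by -1.55 relative to Bcat1 (SE 0.20, exact p = 0.1), the largest gap. Idh2 changed by -0.76 relative to Idh1 (SE 0.31, exact p = 0.1) and Oxct1 by -0.47 relative to Acat1 (SE 0.175, exact p = 0.1). Of the NADP-dependent isocitrate dehydrogenases the mitochondrial form thus had the more negative change. In 3 pairs the groups overlapped, with Idh2 at -0.045 relative to Idh3a (SE 0.27, exact p = 1), Mdh2 at -0.26 relative to Mdh1 (SE 0.14, exact p = 0.2) and Bckdha at 0.115 relative to Bckdk (SE 0.18, exact p = 0.6).

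**Figure D4:**
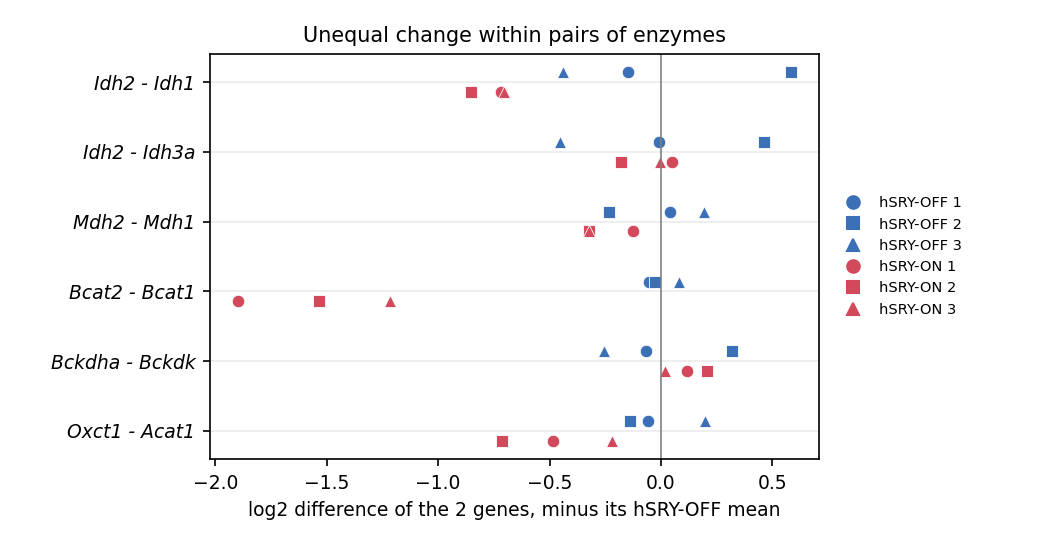
Each point is 1 heart, with the log2 difference of the 2 named genes minus its mean in the hSRY-OFF hearts on the horizontal axis, for 6 of the 7 pairs compared; blue is hSRY-OFF, red hSRY-ON and shapes mark the replicate number. Idh2 and Idh1, Bcat2 and Bcat1, and Oxct1 and Acat1 separate the groups, and the other 3 pairs overlap.

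A list of 32 further genes of the same pathways was examined, of which 28 had a probe and 19 were tested. Of these 7 (36.8%) were called lower and 1 higher, against 13.9% and 14.9% of all tested genes, with a median change of -0.465. Besides Ppm1k, the lower ones included Hsd17b10 and Echs1, which act in isoleucine, valine and fatty acid breakdown, Mcee, the methylmalonyl-CoA epimerase that follows propionyl-CoA carboxylase, and Got2, the mitochondrial aspartate aminotransferase. Hsd17b10 was 11.32, 11.45 and 10.86 in hSRY-OFF and 10.32, 10.27 and 10.41 in hSRY-ON hearts, all hSRY-ON hearts lying below (change -0.87, SE 0.17, adjusted p = 0.00826). Mcee was 12.39, 12.48 and 12.39 in hSRY-OFF and 11.56, 11.64 and 11.68 in hSRY-ON hearts, with a tight spread in both groups (change -0.79, SE 0.11, adjusted p = 0.00211).

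Acat2, the cytosolic thiolase of sterol synthesis, was the 1 gene of that list called higher. It was 8.275, 7.87 and 8.295 in hSRY-OFF and 8.86, 8.70 and 8.68 in hSRY-ON hearts, without overlap (change 0.60, SE 0.15, adjusted p = 0.0232), and the call was lost without hSRY-OFF replicate 2 or hSRY-ON replicate 1 and without normalization between arrays (adjusted p up to 0.335). Acly, which makes cytosolic acetyl-CoA from citrate, and Aacs, which activates acetoacetate in the cytosol, had changes of 0.24 and 0.29 that did not pass the test. The call of Got2 was lost without hSRY-OFF replicate 1 or hSRY-ON replicate 1, and without normalization between arrays (adjusted p up to 0.0729).

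**Figure D5:**
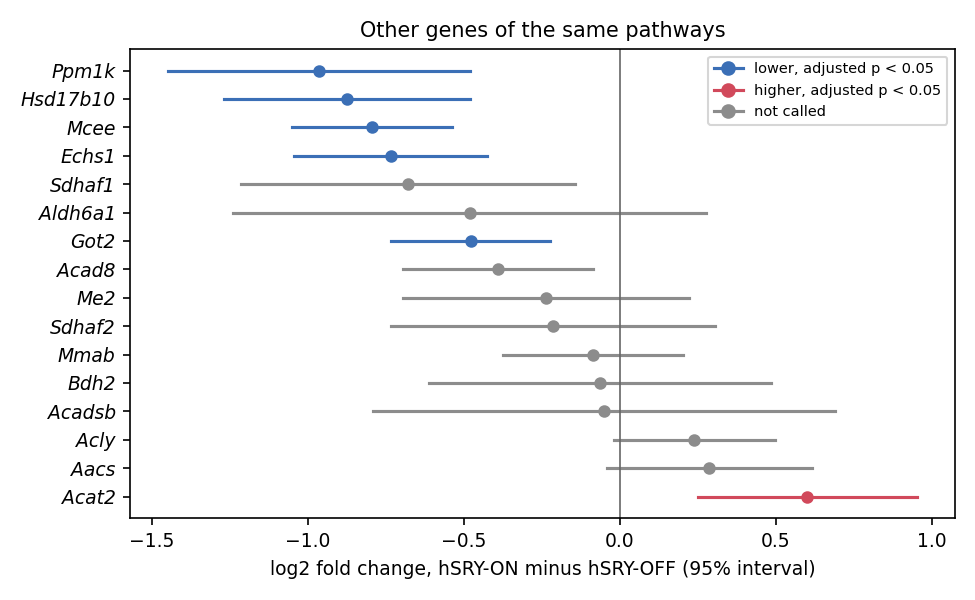
Each point is the log2 fold change, hSRY-ON minus hSRY-OFF, for 16 of the 19 tested further genes of these pathways, with its 95% interval as a bar; blue is called lower, red called higher and grey not called at an adjusted p-value under 0.05. Ppm1k is lowest at -0.96 and Acat2 highest at 0.60.

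Because so many TCA cycle genes moved together, promoters were read for 4 short motifs on both strands, for all 39 genes. The stretch read ran from 250 bases before to 50 bases after the start of each transcript. The sequences are those of RefSeq on GRCm38.p6, and 34 of the 39 genes matched, with 46 promoters because some genes have several, partly overlapping starts. The element TCAAGGTCA of estrogen-related receptors, factors of oxidative metabolism, was in 1 of 46 promoters (2.17%), that of Sdhd, against 0.423% of all 32851 promoters. CGCATGCGC, bound by NRF1, was in 3 of 46 (6.52%) against 1.75% of all, and these were 2 overlapping promoters of Ogdh that hold the same site and the promoter of Pccb. The letters CCGGAAG of GABPA were in 6 of 46 (13.0%) against 8.86%, in Auh, Dlst, Idh3b, Idh3g, Sdhb and Sdhd. AACAAT, the core read by SRY and the SOX factors, was in 2 of 46 (4.35%) against 10.7%, in Idh1 and Suclg1. Genes called lower had 17 of the 46 promoters. Of these 17, 0 held TCAAGGTCA, 2 CGCATGCGC, 2 CCGGAAG and 1 AACAAT. These matches are a description and carry no information on binding in these hearts.

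The stretches before the starts of Ogdh and Suclg1 are shown because Ogdh was the only called member with the NRF1 letters and Suclg1 the only called member with the SRY and SOX core, with the motif in capitals as it reads on the strand of the gene. The Ogdh stretch is chr11:6292483-6292557 on the plus strand, and its motif is that of NRF1. The Suclg1 stretch is chr6:73248427-73248504 on the plus strand, and its motif is the SRY and SOX core.
Ogdh: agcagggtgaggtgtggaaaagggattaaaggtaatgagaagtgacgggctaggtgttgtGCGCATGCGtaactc
Suclg1: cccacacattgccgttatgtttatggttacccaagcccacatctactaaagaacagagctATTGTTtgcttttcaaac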

How the data were processed

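Hearts of 3 hSRY-ON and 3 hSRY-OFF pups were grouped by the sample labels, and the methods describe biological triplicates. The authors hybridized biotin-labelled cRNA to MouseRef-8 arrays and deposited the bead intensity of each probe without normalization, together with a detection p-value against negative-control beads. The submitters' processing notes name limma and the methods name TCC, both without settings, and no genome build enters the values. limma 3.58.1 in R 4.3.3 was used from there. The neqc function corrected background, added an offset of 16, quantile normalized and took log2. Probes with a detection p-value under 0.05 on at least 3 of 6 arrays were fitted with lmFit and eBayes on group alone, and the Benjamini-Hochberg adjustment of the 2-sided p-values covered all 12970 probes tested. limma was preferred to TCC because TCC is built for counts. The steps were tested on simulated data. No 2 arrays held identical values.

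The genes, lists, pairs and tests were chosen with earlier results of these data known, so the counts are descriptions. Values in every heart are given for the 6 called members with the largest change in a group, those called higher, ketone body genes and paired genes, and other members are summarized or given in part; Fh1, Sdhd, Suclg1, Bckdhb and Dld are shown in full as well, for subunit comparison. Of the further genes, 3 and the pair that holds 1 of them are counted but not reported here by name. The array has no sequencing depth, and 3 arrays a group limit the precision. The alternatives were 2 other background corrections, 3 other normalizations, 3 other probe filters, 2 other variance models, the replicate number as a block, the mean of a gene's probes and leaving out each heart. Python 3.11.15 with matplotlib 3.10.9 drew the figures.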

Additional observations from a re-analysis of the deposited data

How the results depend on the processing

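Of 896 comparisons of single genes with an alternative, 797 stayed on their side of the threshold, 52 gained a call, 47 lost one and 0 reversed a called direction. The sign of Idh1, Acadsb and Bdh2, none of them called, turned under some alternative. Among the 17 called members, Cs, Ogdh, Dlst, Suclg1, Sdhb, Fh1, Mdh2, Bcat1 and Oxct1 were called under each alternative. Of the 14 members not called, 8 were called under some alternative. The count of branched-chain calls went from 3 to 6 without background correction, to 6 with normexp on the intensities alone, to 5 with detection on all 6 arrays, to 5 with detection at 0.01, to 6 with an intensity trend and robust eBayes and to 7 with array quality weights. The share of all tested genes called lower rose as well, from 13.9% to 15.2%, 15.1%, 15.6%, 15.3%, 15.6% and 19.3% in the same order. The count for the further pathway genes went from 8 to 5 without normalization between arrays, where 9.05% of all tested genes were called lower. In that setting Idh3a, Suclg2, Sdhc, Dbt and Hibadh each had an SE of 0.303 and lost their calls. Their changes, from -0.76 to -0.61, were then more negative than in the main fit. With single hearts left out, the TCA cycle count lay between 8 and 15, the branched-chain count between 2 and 4, the ketone body count between 2 and 3, the count of further genes between 5 (without hSRY-ON replicate 1) and 9, and the separate pairs between 4 and 6. The share of all tested genes called lower then lay between 8.85% and 14.6%. The ketone body counts include Bdh1, which was tested only through hSRY-ON. With detection on all 6 arrays Bdh1 was no longer tested, and 2 ketone body genes were called lower and 0 higher. The cause of these shifts was not tested.

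Replicate numbers are shared between the groups, but hearts of the same number did not deviate together, with correlations of -0.02, 0.04 and -0.07. The labels name no litter, so whether hearts of the same number belong together is unknown, and the main fit left the number out. With the replicate block the calls were 9 in the TCA cycle, 2 of branched-chain genes, 2 of ketone body genes and 7 of the further genes, and 4 pairs were separate. Members that lost their call with it were Suclg2 (adjusted p = 0.051), Sdhc (0.0636), Mdh1 (0.0536) and Dbt (0.0621). Over all genes, calls numbered 1341 lower and 1437 higher, 1074 and 1120 with the block, 874 and 590 without normalization between arrays, 855 and 904 without hSRY-OFF replicate 1, and 906 and 990 without hSRY-ON replicate 1. Precision is limited by 3 hearts a group and, for Dld, Aco1, Bdh1 and Sdhd, by signals close to background.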
